A study of Mus musculus with 8 samples.

Results

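The respiratory chain of the inner mitochondrial membrane is built from the products of 2 genomes. The mitochondrial DNA encodes 13 core proteins, and all other subunits are made from nuclear genes and imported. Complex I oxidises NADH, complex II oxidises succinate, complex III passes their electrons to cytochrome c, complex IV hands them to oxygen, and complex V uses the proton gradient so formed to make ATP. Complexes I, III, IV and V hold subunits of both genomes, whereas complex II and cytochrome c are wholly nuclear. The mitochondrial genes are transcribed as long joined RNAs that are then cut into single mRNAs, which is why their levels are often read as a group.

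Members were protein-coding genes chosen by symbol: the mitochondrial mt-Nd, mt-Co, mt-Cyt and mt-Atp genes, and nuclear genes named Nduf, Uqcr, Cox4i, Cox5, Cox6, Cox7, Cox8 or Atp5, with Cyc1, Cycs, Sdha, Sdhb, Sdhc and Sdhd. The rule found 109 genes of the 54532 in the deposited tables, 13 mitochondrial and 96 nuclear. They were measured by poly(A)-selected RNA-seq in 4T1 cells, a mouse triple-negative mammary carcinoma line, in 8 libraries, 2 for each of 4 groups. Scramble cells carried a control hairpin and shMCT-1 cells a hairpin against MCT-1 (gene Mcts1), each given control IgG or a blocking antibody to mouse IL-6R at 100 ng/ml for 48 h. All 4 groups grew in medium with puromycin, and the labels do not say how many clones either line holds. The replicates are described as independent biological ones. In the main fits, p-values rest on the spread between libraries, 2 a group, estimated jointly over all 8.

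Library totals ran from 19839299 to 33063570 counts, so 1 CPM, a count scaled to the library total, stood for 19.8 to 33.1 counts. Mcts1, the targeted gene, was at 15.4 and 11.8 CPM in scramble + IgG, 12.8 and 13.5 in scramble + anti-IL-6R, 6.32 and 6.18 in shMCT-1 + IgG, and 6.70 and 4.92 in shMCT-1 + anti-IL-6R. No shMCT-1 library reached the scramble libraries, and the log2 fold change was -1.08 ± 0.17 (SE) within IgG and -1.13 ± 0.17 within anti-IL-6R. All 6 epithelial markers chosen for the line were above 1 CPM, with sums of 2386 to 2539 CPM in scramble and 3166 to 3430 CPM in shMCT-1 libraries, and Epcam averaged 4.37 and 51.3 CPM. Of 5 leukocyte markers, Cd68 alone passed 1 CPM and Adgre1 was at 0, with sums of 3.12 to 3.94 and 6.11 to 7.83 CPM. Of 3 endothelial markers, Cdh5 alone passed 1 CPM, with sums of 0.096 to 0.332 and 0.555 to 1.82 CPM. The 3 fibroblast markers summed to 12.6 to 17.2 CPM over all libraries and were mostly Pdgfra, with Col3a1 at or below 0.0302 CPM. Of 5 muscle markers, Tnnt2 alone passed 1 CPM, with sums of 118 to 169 and 248 to 275 CPM, while Ckm, Actc1, Myh4 and Myh7 stayed at or below 0.128 CPM. The part of these markers in the results was not tested. In such bulk samples, fewer cells of a kind and less RNA per cell cannot be told apart.

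Of the 109 members, 100 exceeded 1 CPM in 2 or more libraries and were tested, all 13 mitochondrial and 87 of 96 nuclear. The 9 others never exceeded 12 counts or 0.363 CPM in any library. They were Cox4i2, Cox6a2, Cox6b2, Cox7a1, Cox7b2, Cox8b and Cox8c, which are complex IV isoforms of muscle, lung, testis and other tissues, Ndufa4l2, a paralog of Ndufa4, and a second gene model of Atp5o. Their ubiquitous partners Cox4i1, Cox6a1, Cox6b1, Cox7a2, Cox7b and Cox8a all passed, so complex IV in these cells was measured through its general isoforms. Per kilobase of exon, mt-Co1, the catalytic subunit of complex IV, averaged 3556 CPM over the 8 libraries. The highest nuclear levels per kilobase in each complex were 378 CPM for Cox8a (IV), 362 for Atp5b (V), 358 for Ndufb9 (I), 132 for Uqcr10 (III), 83.3 for Sdhd (II) and 58.2 for Cycs.

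The mitochondrial mRNAs have near-identical copies in nuclear DNA, which decide how far single genes can be read. In GENCODE M21 on GRCm38, 7 of the 13 genes had 8 such copies of at least 97% identity, 7 of them in a block on chromosome 1 (24611535 to 24616197, minus strand). mt-Nd3 (mitochondrial DNA, 9459 to 9806) and its copy Gm28438 (chromosome 1, 24612775 to 24613119) differed at 1 of 345 bases. The first 32 bases of both are shown 5′ to 3′ because that base, in capitals, is the only one that differs within the 345 bases compared.
mt-Nd3: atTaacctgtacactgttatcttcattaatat
Gm28438: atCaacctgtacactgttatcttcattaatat
The difference is T3C, counted from 1 at the first base of the mitochondrial gene. mt-Atp6 (7927 to 8607) and its copy Gm10925 (chromosome 1, 24613974 to 24614651) were the same at all 678 bases compared, so a stretch from the middle reads alike in both.
mt-Atp6: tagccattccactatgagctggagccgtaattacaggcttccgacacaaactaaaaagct
Gm10925: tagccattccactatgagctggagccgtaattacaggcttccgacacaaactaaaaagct
RSEM, the authors' counting program, divides reads that match several places. Of the reads of mt-Atp6 and its copy, 87.4% to 93.1% were put on the copy, and the shares were 75.9% to 85.6% for mt-Co2, 73.2% to 88.7% for mt-Co3, 44.4% to 83.9% for mt-Nd3 and 16.4% to 62.1% for mt-Nd4l. For mt-Co1 and mt-Nd4 they were at most 8.83% and 13.1%. Which locus these reads came from was not tested. mt-Nd1, mt-Nd2, mt-Nd5, mt-Nd6, mt-Cytb and mt-Atp8 had no such annotated copy, and values with the copies added are given beside the others. Only annotated transcripts were searched, so unannotated copies of these 6 genes may exist. mt-Atp8 shares bases with mt-Atp6 and lies between mt-Co2 and mt-Atp6, whose copies both lie in the chromosome 1 block. Whether its reads were divided as well was not tested.

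The 13 mitochondrial mRNAs together made up a smaller part of the shMCT-1 libraries, and the nuclear members a larger one. Mitochondrial mRNA took 2.04% and 2.50% of all counts in scramble + IgG, 1.95% and 2.26% in scramble + anti-IL-6R, 1.11% and 1.52% in shMCT-1 + IgG, and 0.841% and 0.832% in shMCT-1 + anti-IL-6R. The 96 nuclear members took 0.959% and 0.862%, 0.950% and 0.924%, 1.21% and 1.26%, and 1.26% and 1.13% in the same order. Every shMCT-1 library lay below every scramble library for the first sum and above it for the second. The group means of the mitochondrial share were 2.27% ± 0.324 (SD, n = 2), 2.10% ± 0.213, 1.32% ± 0.289 and 0.837% ± 0.00595, so the step between backgrounds was larger than the spread within groups. The mitochondrial sum was 2.06 to 2.90 times the nuclear one in the 4 scramble libraries, 0.921 and 1.21 times in shMCT-1 + IgG, and 0.665 and 0.739 times in shMCT-1 + anti-IL-6R. With the nuclear copies added, the mitochondrial share was 2.60% to 3.30% in scramble, 1.56% and 2.21% in shMCT-1 + IgG, and 1.23% and 1.19% in shMCT-1 + anti-IL-6R.

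**Figure D1:**
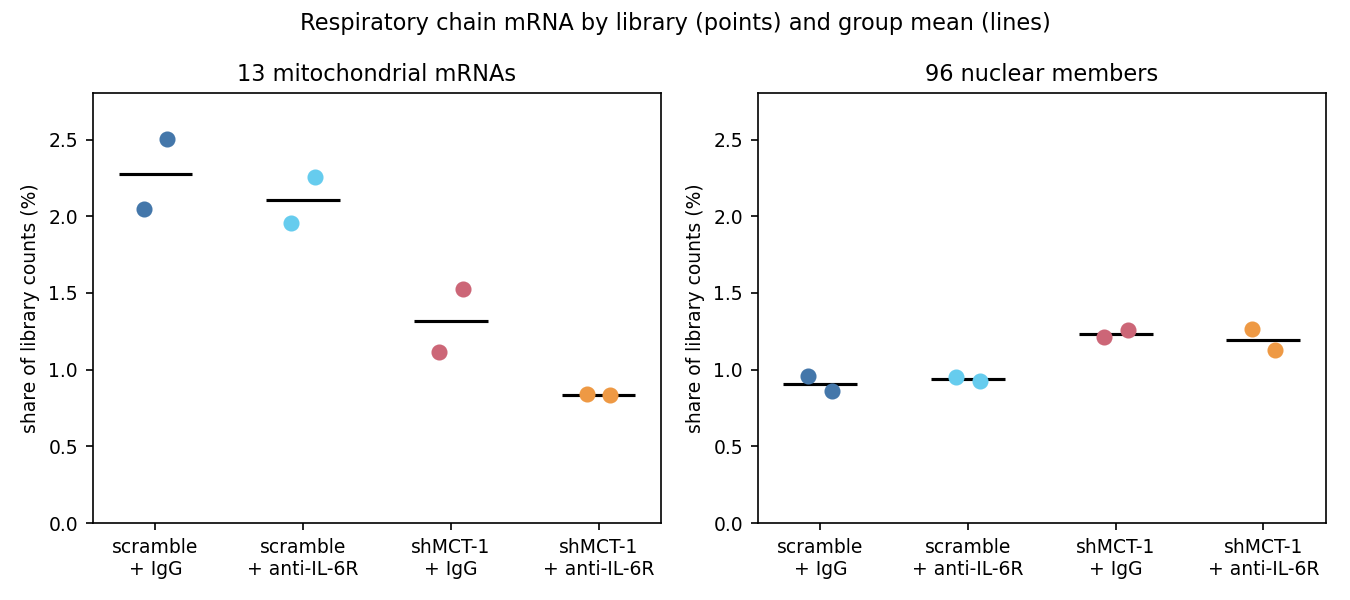
Share of each library's counts, in percent, taken by the 13 mitochondrial mRNAs (left) and the 96 nuclear members (right), with 1 point a library and a line at the mean of each group of 2. All 4 shMCT-1 libraries lie below the scramble libraries on the left, at 0.832% to 1.52%, and above them on the right, at 1.13% to 1.26%.

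The fall in the ratio was present in each complex that draws on both genomes. With copies added, the mean log2 ratio of mitochondrial to nuclear counts went from 2.22 in scramble + IgG to 1.00 in shMCT-1 + IgG for complex I, from 1.72 to 0.52 for complex III, from 3.07 to 1.72 for complex IV and from 0.10 to -0.64 for complex V. Under anti-IL-6R it went from 2.05 to 0.50, from 1.495 to 0.01, from 2.94 to 1.15 and from -0.05 to -1.28. The step was smallest in complex V under each treatment, and these sums carry no test. The 2 mitochondrial ribosomal RNAs, mt-Rnr1 and mt-Rnr2, are no members. Their summed level was 256 and 211 CPM in scramble + IgG, 128 and 149 in scramble + anti-IL-6R, 135 and 54.5 in shMCT-1 + IgG, and 61.6 and 75.3 in shMCT-1 + anti-IL-6R, so 1 shMCT-1 library overlapped the scramble range. Ribosomal transcripts were depleted during library preparation, so the ribosomal sums are levels left after it. The part of depletion in their differences was not tested. Mitochondrial tRNA genes summed to at most 0.128 CPM.

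To ask how each mitochondrial gene differed with MCT-1 silencing, shMCT-1 was compared with scramble under each treatment by edgeR's quasi-likelihood test. Within IgG, 9 of 13 were lower and 0 higher at an adjusted p under 0.05, with a median log2 fold change of -0.68, against a background of 26.2% of 12704 tested genes lower and 28.3% higher. Within anti-IL-6R, 11 were lower and 0 higher, with a median of -1.19, against 27.3% lower and 26.9% higher. The median over all tested genes was 0.01 in both comparisons. As the 13 mRNAs are cut from joined RNAs, their calls are not independent of each other. The 2 comparisons share no library, but both contrast the same scramble and shMCT-1 cells and use a shared estimate of the spread. Silencing and other differences between the 2 lines cannot be told apart. After TMM scaling, both shMCT-1 libraries lay below both scramble libraries in 10 of 13 genes within IgG and 11 within anti-IL-6R, against 38.1% and 40.7% of all tested genes. Across both treatments, 10 were lower and 1, mt-Nd3, higher, against 34% of all genes lower and 35% higher.

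Among the genes without an annotated copy, mt-Nd5, a proton-pumping subunit of complex I, moved most. It was at 1735 and 2196 CPM in scramble + IgG, 1633 and 1898 in scramble + anti-IL-6R, 725 and 876 in shMCT-1 + IgG, and 487 and 579 in shMCT-1 + anti-IL-6R. The groups did not overlap, and the log2 fold change was -1.26 ± 0.15 (SE) within IgG (adjusted p = 0.00014) and -1.67 ± 0.15 within anti-IL-6R (adjusted p = 2.9e-05). mt-Atp8, a small subunit of the membrane part of complex V, was at 628 and 761, 517 and 626, 286 and 362, and 139 and 249 CPM in the same order. It fell by 1.06 ± 0.24 within IgG and by 1.51 ± 0.24 within anti-IL-6R on the log2 scale. mt-Nd6, the only member encoded on the other strand of the mitochondrial DNA, was at 601 and 680, 590 and 714, 319 and 413, and 234 and 222 CPM. Its log2 fold changes were -0.77 ± 0.14 and -1.46 ± 0.14, so the reads counted for this gene were lower too. Whether the counting used strand is not given in the sources used here, so reads antisense to mt-Nd6 cannot be told apart from its own, and mt-Atp8 shares bases with mt-Atp6 and mt-Nd4l with mt-Nd4.

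mt-Nd2 of complex I fell by 0.82 ± 0.17 and 1.19 ± 0.17, and mt-Cytb, the only mitochondrial subunit of complex III, fell by 0.68 ± 0.17 and 1.13 ± 0.18. mt-Nd1 was at 2774 and 3628 CPM in scramble + IgG and 1834 and 2651 CPM in shMCT-1 + IgG, a log2 fold change of -0.47 ± 0.18 that missed the threshold (adjusted p = 0.051). Within anti-IL-6R it fell by 0.96 ± 0.18, from 2703 and 3192 CPM to 1520 and 1387 CPM. The 6 genes without an annotated copy, mt-Atp8 among them, were thus lower in 5 of 6 cases within IgG and in 6 of 6 within anti-IL-6R.

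For genes with a copy, adding the copies narrowed the spread between genes. mt-Co1 was at 7189 and 8522, 7098 and 8014, 3326 and 4727, and 2473 and 2599 CPM, and its log2 fold changes of -0.92 ± 0.16 and -1.52 ± 0.16 became -0.83 and -1.44 with copies. mt-Nd4 stood at -0.63 ± 0.13 and -1.12 ± 0.13 alone and at -0.76 and -1.13 with its copy, and mt-Nd4l at -1.13 ± 0.12 and -1.33 ± 0.12 alone and at -1.21 and -1.93 with its copy. mt-Co3 alone was at 356 and 327 CPM in scramble + IgG and 206 and 272 CPM in shMCT-1 + IgG, against 385 and 425 CPM and 116 and 78.5 CPM under anti-IL-6R. Its log2 fold change of -2.01 ± 0.18 within anti-IL-6R, the lowest of the 13 in that comparison, became -0.996 ± 0.17 with its copy, and -0.47 ± 0.18 within IgG became -0.45 ± 0.17. mt-Co2 had values of 0.00 ± 0.26 within IgG and -0.70 ± 0.26 within anti-IL-6R alone, and -0.44 ± 0.18 and -0.99 ± 0.18 with its copy.

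mt-Nd3 and mt-Atp6 were the genes whose direction depended most on the copies. mt-Nd3 alone was at 61.5 and 32.9, 37.2 and 38.7, 66.1 and 88.3, and 98.3 and 30.7 CPM, and replicate 2 of shMCT-1 + anti-IL-6R lay below all scramble libraries. Its values were 0.75 ± 0.44 and 0.82 ± 0.44 alone, and its call across both treatments did not hold in 5 of the 8 fits that left out a single library. With its copy the values were 0.00 ± 0.14 and -0.25 ± 0.14. mt-Atp6 had 0.20 ± 0.25 and -0.21 ± 0.25 alone, against -0.16 ± 0.17 and -0.71 ± 0.17 with its copy, the last past the threshold (adjusted p = 0.0052). With copies added, 10 of 13 genes were lower within IgG, 12 within anti-IL-6R and 12 across both treatments, and 0 were higher in any of the 3.

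**Figure D2:**
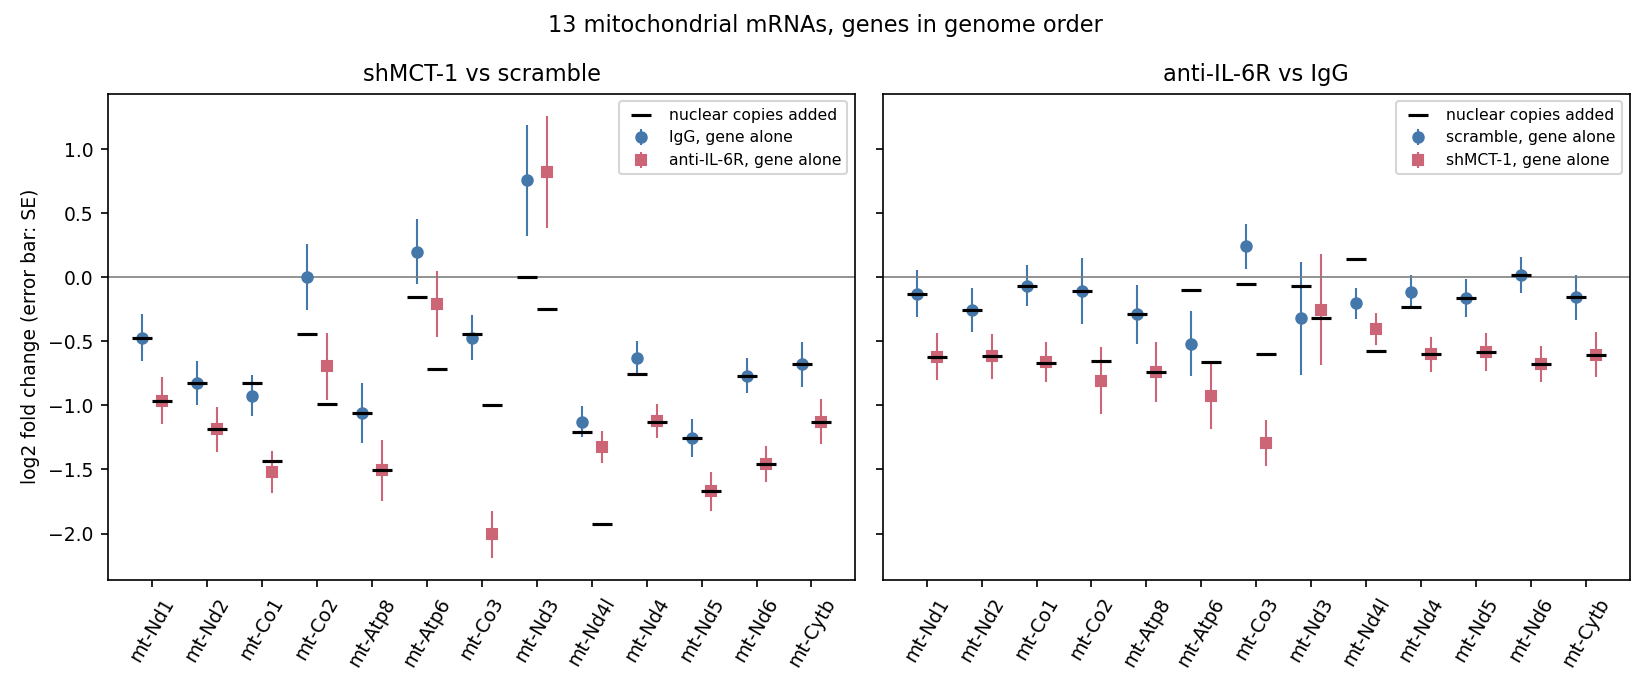
Log2 fold change of each mitochondrial gene, in genome order, for shMCT-1 vs scramble (left) and for anti-IL-6R vs IgG (right). Bars are the SE from the fit of all 8 libraries, 2 a group. Black dashes give the value with nuclear copies added. On the left, no dash lies above 0: the dashes run from 0.00 for mt-Nd3 to -1.26 for mt-Nd5 within IgG and from -0.25 for mt-Nd3 to -1.93 for mt-Nd4l within anti-IL-6R.

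The nuclear members differed in the other direction. Within IgG, 69 of 87 were higher and 1 lower, with a median log2 fold change of 0.53, and within anti-IL-6R 52 were higher and 1 lower, with a median of 0.36. The backgrounds are those given above, 28.3% and 26.9% of all tested genes higher. Of the members higher within anti-IL-6R, 51 were also higher within IgG, which is 98.1% of the former list and 73.9% of the latter. The SE of single members ran from 0.08 to 0.26. Sdha was the member that fell in both.

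Gene length moved with this result. Nuclear members had a median of 1789 exonic bases, against 4574 for the other 11015 tested protein-coding genes, and short genes as a class were higher in the shMCT-1 libraries. Among the 658 other coding genes under 1500 exonic bases, 52.0% were higher within IgG and 45.3% within anti-IL-6R, with medians of 0.45 and 0.38. Of the 36 nuclear members under 1500 bases, 31 and 22 were higher, with medians of 0.58 and 0.39. Among coding genes of 1500 to 6000 bases, 35.2% and 34.7% were higher, with medians of 0.14 and 0.13, and of the 48 members of that length 35 and 27 were higher, with medians of 0.51 and 0.35. A length correction fitted on coding genes that are no members, an alternative chosen after the data were seen, left 36 nuclear members higher and 7 lower within IgG (median 0.18), and 27 higher and 6 lower within anti-IL-6R (median 0.11). Of the 12704 tested genes, 3179 were then higher and 3501 lower within IgG, and 3143 and 3463 within anti-IL-6R. A correction fitted on all tested genes together left 59 and 55 nuclear members higher. For the mitochondrial genes, which are short as well, the correction on coding genes widened the difference, and 10 and 12 of 13 were lower, with medians of -1.15 and -1.55. After it, 25 nuclear members were higher under both treatments, among them Atp5b, Ndufa4, Ndufs1, Sdhc and Uqcrc1, and 3 were lower under both, Ndufa1, Sdha and Uqcrfs1. The overlap over all tested genes is not given for these counts either.

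**Figure D3:**
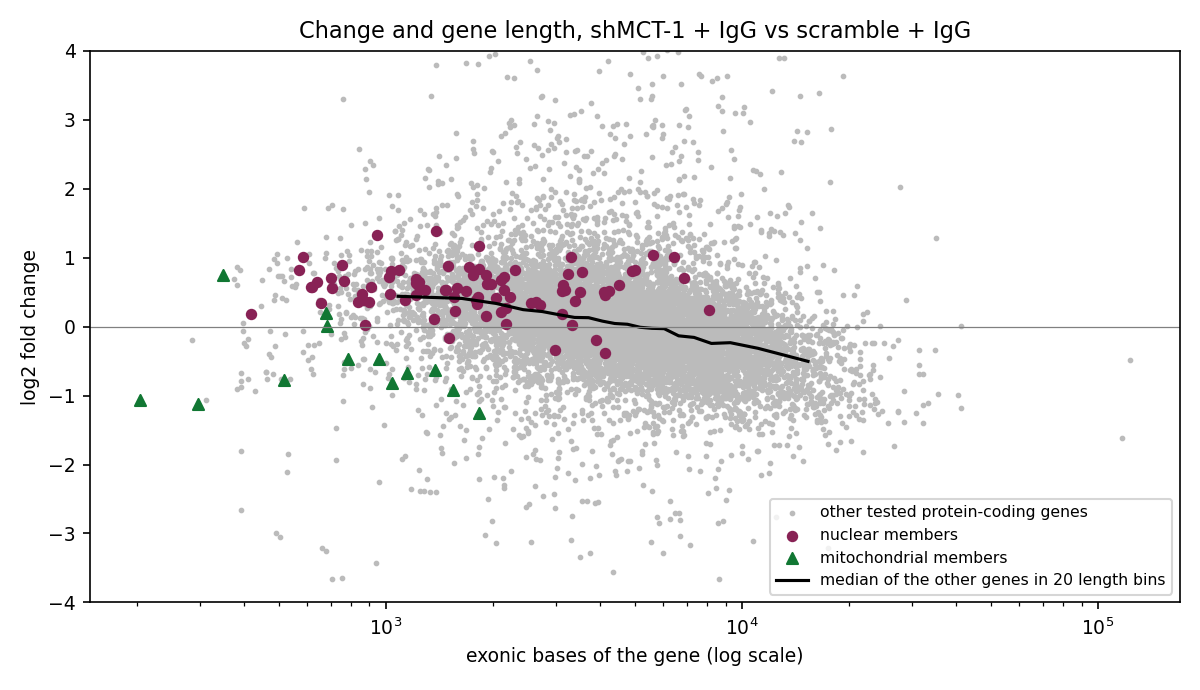
Log2 fold change of shMCT-1 + IgG vs scramble + IgG against exonic bases on a log axis, for other coding genes (grey), nuclear members (purple) and mitochondrial members (green), with a black line through the median of the other genes in 20 length bins. The line lies above 0 for short genes, near the medians of 0.45 and 0.58 of short other genes and short members, and below 0 for genes over 6000 bases.

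Described by complex, without that correction, the medians of the nuclear members lay close together within IgG. Single members ranged from -0.39 to 1.38 there. Within IgG, all 12 tested nuclear members of complex IV were higher (median 0.61), 7 of 9 in complex III (0.64), 13 of 17 in complex V (0.53), 33 of 44 in complex I (0.51) and 3 of 4 in complex II (0.53). Within anti-IL-6R the counts were 9 of 12, 5 of 9, 10 of 17, 25 of 44 and 2 of 4. After the correction on coding genes, 4 of 12, 4 of 9, 8 of 17, 18 of 44 and 1 of 4 were higher within IgG, with 2 lower in complex III, 4 in complex I and 1 in complex II. Within anti-IL-6R, 6, 1, 8, 10 and 1 were then higher, with 1 lower in complex III, 2 in complex V, 2 in complex I and 1 in complex II, so complexes I and III stood at 22.7% and 11.1% higher, no more than the 3143 of 12704 genes over the whole table. Of the 8 complex I assembly factors named Ndufaf, which help to build the complex but are not part of it, 4 were higher within IgG and 0 within anti-IL-6R, beside the 28.3% and 26.9% of all tested genes. After the correction on coding genes, Ndufaf7 was higher and Ndufaf1, Ndufaf2 and Ndufaf4 lower within IgG, and none passed the test within anti-IL-6R.

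**Figure D4:**
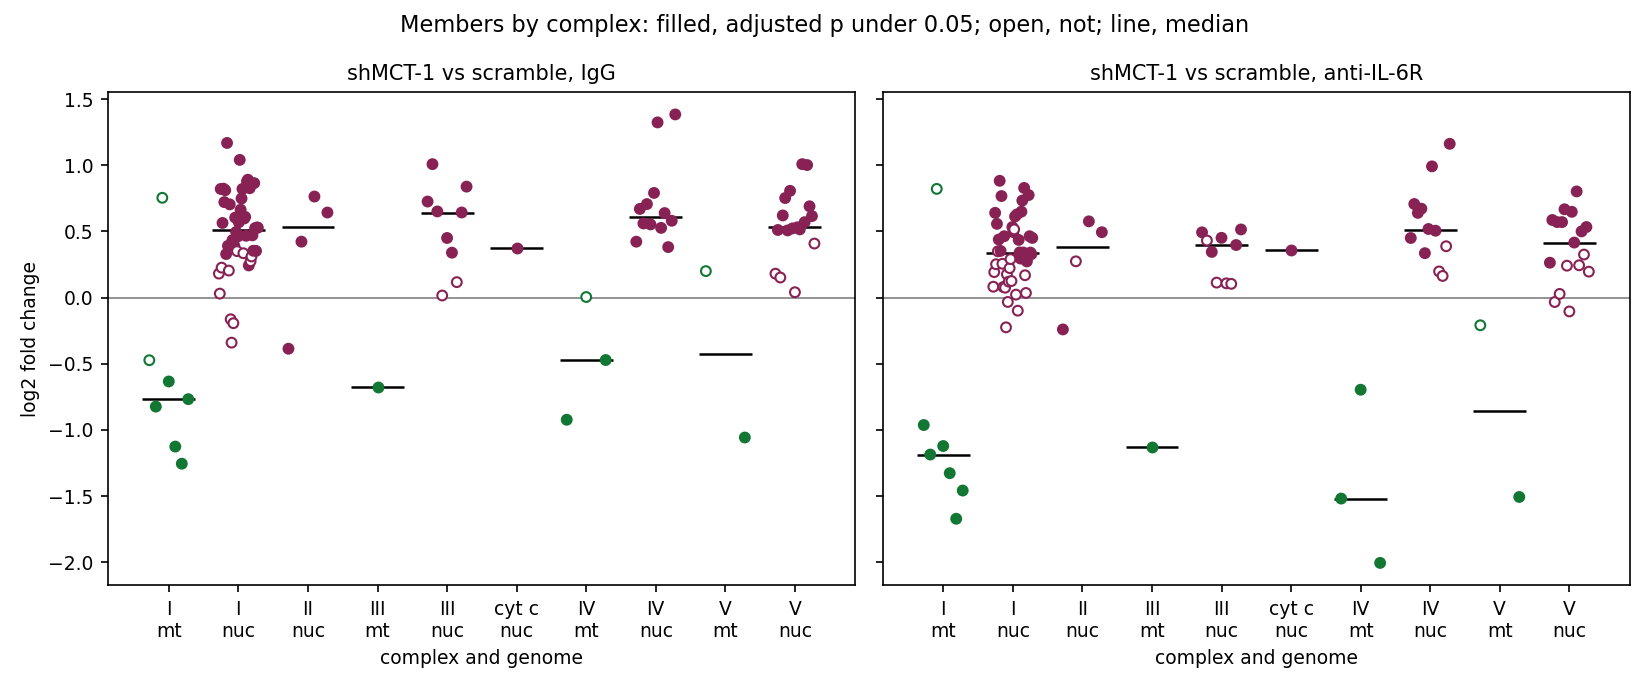
Log2 fold change of each tested member by complex and genome (mt, mitochondrial; nuc, nuclear), within IgG (left) and within anti-IL-6R (right), without length correction. Filled points had an adjusted p under 0.05 and lines are medians; the nuclear medians lie between 0.34 and 0.64 and the mitochondrial medians below 0.

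In complex IV, Ndufa4, a subunit first assigned to complex I, differed most of all nuclear members. It was at 82.9 and 58.2 CPM in scramble + IgG, 77.3 and 72.0 in scramble + anti-IL-6R, 167 and 191 in shMCT-1 + IgG, and 170 and 152 in shMCT-1 + anti-IL-6R. All 4 shMCT-1 libraries lay far above the scramble ones, with log2 fold changes of 1.38 ± 0.15 (adjusted p = 7.3e-05) and 1.16 ± 0.15 (adjusted p = 0.00018). Cox7a2, the general isoform of a small subunit, was at 46.0 and 34.1, 46.0 and 45.3, 91.9 and 103, and 94.1 and 80.7 CPM, and rose by 1.32 ± 0.14 and 0.99 ± 0.13. Both stayed higher after the correction on coding genes, at 0.98 and 0.82 for Ndufa4 and 0.84 and 0.61 for Cox7a2. The paralog Cox7a2l, which joins complexes III and IV into supercomplexes, rose by 0.53 ± 0.09 and 0.51 ± 0.09, and had corrected values of 0.13 and 0.17 that missed the threshold. Cox4i1, Cox6a1, Cox6b1 and Cox8a rose by 0.42, 0.71, 0.55 and 0.58 within IgG, but their corrected values of 0.03, 0.19, 0.04 and 0.07 missed the threshold.

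In complex I, the accessory subunit Ndufa7 was at 39.3 and 22.9, 36.3 and 34.6, 60.9 and 74.8, and 64.1 and 52.0 CPM. It rose by 1.17 ± 0.21 within IgG and 0.77 ± 0.21 within anti-IL-6R. Ndufs7, a core subunit at the quinone site, was at 47.4 and 33.9, 45.3 and 46.1, 72.9 and 71.0, and 81.2 and 69.3 CPM, with no overlap between backgrounds. It rose by 0.87 ± 0.14 and 0.78 ± 0.14, and the accessory Ndufa5 by 0.81 ± 0.12 and 0.88 ± 0.12. Ndufb2 rose by 1.04 ± 0.25 within IgG, from 12.8 and 6.80 CPM to 17.9 and 21.4 CPM, while its value within anti-IL-6R, 0.52 ± 0.25, missed the threshold. Ndufb9, the nuclear member of complex I with the highest level per kilobase, rose by 0.47 ± 0.10 and 0.30 ± 0.10, with corrected values of -0.01 and -0.08.

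Complex II, whose 4 subunits are all members, was split. Sdha, the flavoprotein that oxidises succinate, was at 200 and 223 CPM in scramble + IgG, 200 and 201 in scramble + anti-IL-6R, 157 and 157 in shMCT-1 + IgG, and 158 and 169 in shMCT-1 + anti-IL-6R. It fell by 0.39 ± 0.09 within IgG (adjusted p = 0.0047) and by 0.24 ± 0.09 within anti-IL-6R (adjusted p = 0.042), with no overlap between groups. The second call did not hold when any single library of 6 was left out, with values from -0.27 to -0.18. Sdhc, a membrane anchor, was at 60.6 and 48.8, 60.8 and 59.5, 91.4 and 89.0, and 91.6 and 81.0 CPM and rose by 0.76 ± 0.11 and 0.58 ± 0.11. The other anchor, Sdhd, rose by 0.64 ± 0.12 and 0.49 ± 0.12. Sdhb, the iron-sulfur subunit, rose by 0.42 ± 0.13 within IgG and had 0.27 ± 0.13 within anti-IL-6R. With the correction on coding genes Sdhc stayed higher, at 0.61 and 0.43, Sdha stayed lower, at -0.47 and -0.32, and Sdhb and Sdhd missed the threshold.

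In complex III, Uqcr10, a small accessory subunit, rose by 1.01 ± 0.20 within IgG, from 66.4 and 42.8 CPM to 88.1 and 125 CPM, and had 0.43 ± 0.20 within anti-IL-6R. Cyc1, the cytochrome c1 subunit, rose by 0.73 ± 0.15 and 0.49 ± 0.15, and its corrected value of 0.23 within anti-IL-6R missed the threshold. Cycs, the soluble carrier between complexes III and IV, rose by 0.37 ± 0.08 and 0.36 ± 0.08, and by 0.23 in each comparison after the correction. In complex V, Atp5j2 of the membrane part was at 76.5 and 54.1, 71.0 and 70.6, 119 and 136, and 126 and 111 CPM and rose by 1.01 ± 0.14 and 0.80 ± 0.14. Atp5b, the catalytic beta subunit, had the highest level per kilobase of the nuclear members of complex V. It was at 1242 to 1288 CPM in the 4 scramble libraries and 1749 to 1906 CPM in the 4 shMCT-1 libraries. Its rise was 0.51 ± 0.09 and 0.59 ± 0.09. The 3 genes for the identical c ring protein differed among themselves: Atp5g1 rose by 0.81 ± 0.15 and 0.67 ± 0.15, Atp5g2 by 0.52 ± 0.19 within IgG, and Atp5g3 had 0.04 ± 0.15 and -0.10 ± 0.15. With the correction on coding genes Atp5g1 stayed higher in both comparisons, Atp5g2 had 0.17 within IgG and missed the threshold, and Atp5g3 was lower within anti-IL-6R, at -0.37.

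Replicate 2 of scramble + IgG held the lowest CPM of the 8 libraries for 58 of the 87 tested nuclear members, and it was also the library with the lowest short genes. The same count over all tested genes or over other short genes is not given here, so it is not read as particular to the members. In the fits given next, fewer genes were called over the whole table as well as among the members. Some other fits with a library left out called more. Without replicate 2 of both IgG groups, a fit added after the data were seen, 39 nuclear members were higher within IgG, beside 2125 of 12593 genes tested. Without replicate 2 of scramble + anti-IL-6R, 25 were higher within anti-IL-6R, beside 2116 of 12575 genes, and without replicate 1 of shMCT-1 + anti-IL-6R, 33 were, beside 2810 of 12659. On the log2 scale, the median deviation of short genes from the mean of the 8 libraries was -0.26 in that library, -0.11 to -0.17 in the other scramble libraries and 0.08 to 0.23 in the shMCT-1 libraries.

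Members that did not rise were often on a few chromosomes. On chromosomes 13, 2 and 12, the medians of the other tested genes within IgG were -0.43, -0.37 and -0.36, and 10.3% of those genes were higher, against 31.2% on the other chromosomes. Of the 16 nuclear members there, 6 were higher within IgG and 1 within anti-IL-6R, with medians of 0.29 and 0.11. Of the 71 members elsewhere, 63 and 51 were higher, with medians of 0.58 and 0.45. Sdha, Uqcrfs1, Uqcrb and Ndufaf2 are on chromosome 13, and Atp5g3, Atp5c1 and Ndufaf1 on chromosome 2. Against the median of its own chromosome, 85 of 87 members lay higher within IgG and 83 within anti-IL-6R. These values were not corrected for length, and the members are shorter than the other coding genes, as given above. The part of length in these counts was not tested. The set of chromosomes was picked after the values were seen, and its part in the result was not tested.

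**Figure D5:**
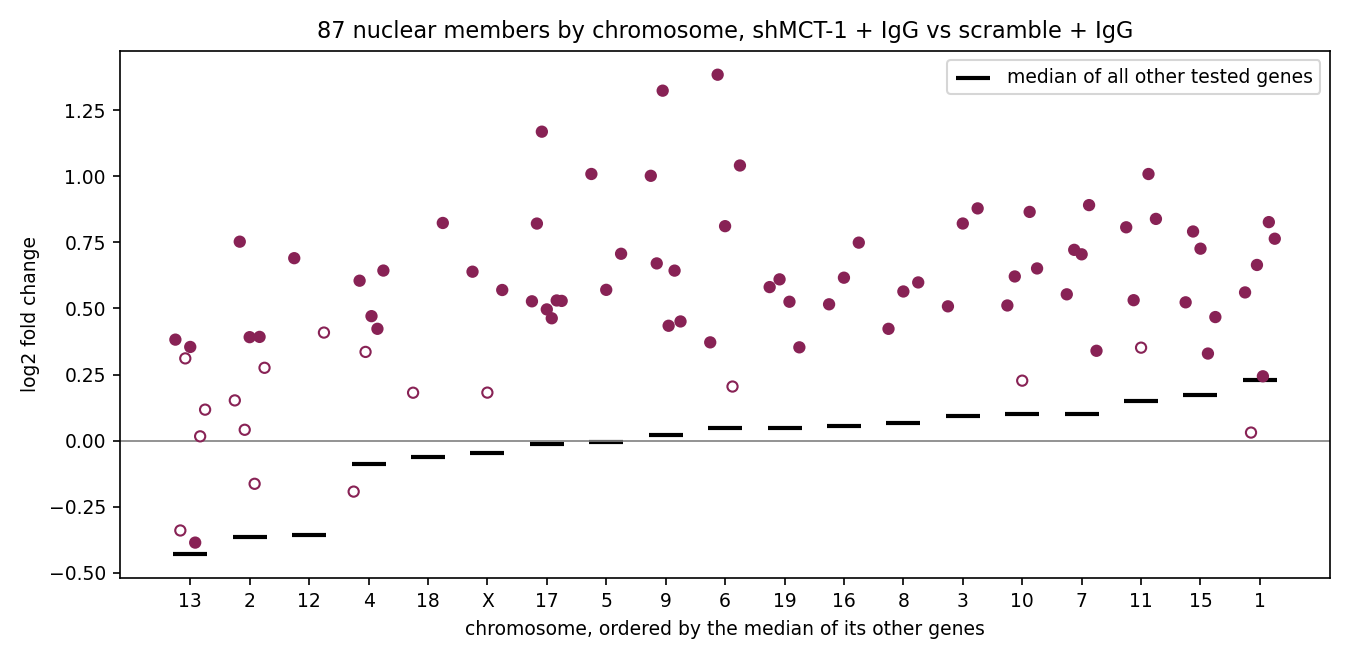
Log2 fold change of the 87 tested nuclear members within IgG, without length correction, by chromosome in order of the median of the chromosome's other tested genes (black dash). Filled points had an adjusted p under 0.05; open points gather on chromosomes 13 and 2, where the dashes lie at -0.43 and -0.37, and all but 2 points lie above their dash.

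Promoters were examined because many nuclear respiratory genes carry sites for NRF1 and for GABP, an ETS factor. RefSeq windows on GRCm38.p6, from 250 bases before to 50 after the start, were found for 77 of 96 nuclear members. The NRF1 motif, a 10-base motif with 1 free base whose matches are in capitals below, was in 24.7% of members, 5.19% of all 27025 genes with a window and 12.5% of the 9059 among them that were tested. CCGGAAG of ETS factors was in 23.4%, 9.93% and 21.6%, AAGATGGCG of YY1 in 10.4%, 1.64% and 3.89%, and GGGCGG of SP1 in 46.8%, 38.2% and 70.8%, each searched on both strands. Tested members with the NRF1 letters had a median log2 fold change of 0.47 within IgG (n = 19) and those without them 0.56 (n = 54), and 15 of 19 and 42 of 54 were higher.

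The 120 bases before the start are shown 5′ to 3′ on the gene's strand for the complex II genes with a window, whose mRNAs went in opposite directions, and for the 2 members that rose most. Capitals mark matches to the 4 motifs on either strand.
Sdha: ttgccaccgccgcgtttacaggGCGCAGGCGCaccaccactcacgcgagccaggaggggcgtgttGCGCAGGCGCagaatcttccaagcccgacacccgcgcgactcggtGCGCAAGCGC
Sdhb: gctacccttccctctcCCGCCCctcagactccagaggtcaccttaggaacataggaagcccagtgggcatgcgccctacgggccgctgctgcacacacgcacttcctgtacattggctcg
Sdhd: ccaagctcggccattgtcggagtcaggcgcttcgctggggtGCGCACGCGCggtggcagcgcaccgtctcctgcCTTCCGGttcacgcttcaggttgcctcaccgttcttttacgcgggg
Ndufa4: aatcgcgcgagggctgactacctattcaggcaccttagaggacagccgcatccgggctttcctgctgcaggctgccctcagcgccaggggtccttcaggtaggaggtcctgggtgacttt
Cox7a2: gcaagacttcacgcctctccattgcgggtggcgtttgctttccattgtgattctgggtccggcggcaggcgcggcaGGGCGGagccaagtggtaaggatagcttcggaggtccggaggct
These are chr13:74350241-74350360 (minus strand), chr4:140961151-140961270 (plus), chr9:50603850-50603969 (minus), chr6:11907451-11907570 (minus) and chr9:79759854-79759973 (minus). Sdha, which fell, held the NRF1 letters 3 times. Sdhd, which rose, held them once beside the ETS letters, and Ndufa4 held none of the 4 motifs in this stretch. A match here describes letters only, and binding was not measured.

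To ask whether blocking IL-6R moved the members, anti-IL-6R was compared with IgG within each background. In scramble cells 0% of the 12704 tested genes passed edgeR's quasi-likelihood test, 166 had an unadjusted p under 0.05, and edgeR's exact test and DESeq2 called 10 and 0. No member had an unadjusted p under 0.05, with medians of -0.16 for mitochondrial and 0.07 for nuclear members. In shMCT-1 cells 0% passed as well, 505 genes had an unadjusted p under 0.05, and the exact test and DESeq2 called 14 and 11. All 13 mitochondrial values were below 0 there, with a median of -0.62, and 12 had an unadjusted p under 0.05, against 2.99% of all tested genes lower at that level. These 13 are cut from joined RNAs, so this count and those of mitochondrial genes below are not counts of independent results. The 13 together took 1.11% and 1.52% of library counts with IgG and 0.841% and 0.832% with anti-IL-6R.

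mt-Nd6, with no annotated nuclear copy, was at 319 and 413 CPM with IgG and 234 and 222 CPM with anti-IL-6R in shMCT-1 cells. Its value was -0.67 ± 0.14 on the log2 scale, and reads antisense to it cannot be told apart, as given above. The 6 genes without an annotated copy ranged from -0.74, for mt-Atp8, to -0.58, and with copies added the 13 ranged from -0.74 to -0.32. The lowest adjusted p was 0.227, for mt-Co3 alone. The exact test called mt-Co1, mt-Co3, mt-Nd2, mt-Nd4, mt-Nd5 and mt-Nd6 lower and DESeq2 all of these but mt-Nd2, so 6 and 5 of the 14 and 11 genes called were mitochondrial members. With no filter on low counts the quasi-likelihood test called 133 of 27528 genes, among them 11 mitochondrial and 3 nuclear members, all lower. That fit took the spread from a trend over all genes rather than from each gene (median prior degrees of freedom infinite, against 5.79 with the filter). After TMM scaling, in 12 of 13 mitochondrial genes both anti-IL-6R libraries lay below both IgG libraries, against 16.4% of all tested genes. The IgG libraries set the size of this difference: the median was -0.44 without replicate 2 of shMCT-1 + IgG and -0.85 without replicate 1. Nuclear members had a median of -0.07, and 7 of 87 had an unadjusted p under 0.05, all lower.

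The interaction term asked if the antibody moved genes differently in the 2 backgrounds. It called 0% of tested genes, with 315 at an unadjusted p under 0.05 and 6 called by DESeq2, among them mt-Co3. The median was -0.45 over the mitochondrial and -0.16 over the nuclear members, and 4 mitochondrial genes had an unadjusted p under 0.05, all lower. mt-Co3 was at -1.53 ± 0.25 alone (adjusted p = 0.427) and at -0.55 ± 0.23 with its copy, and mt-Nd6 at -0.69 ± 0.20. Taking both backgrounds together, anti-IL-6R vs IgG called 0% of genes, with 356 at an unadjusted p under 0.05 and 1 called by DESeq2. Of the 13 mitochondrial genes, 11 had an unadjusted p under 0.05, all lower, against 1.88% of all tested genes, with a median of -0.37.

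Other genes that serve the chain were described across both treatments for shMCT-1 vs scramble, against the 35% of tested genes higher and 34% lower. Of 78 mitochondrial ribosomal protein genes, which translate the 13 mRNAs, 62 were higher and 6 lower, with a median of 0.39. Mrps16 was at 15.1 to 20.1 CPM in scramble and 30.1 to 41.9 CPM in shMCT-1 libraries, and Mrpl34 at 22.3 to 28.6 and 46.7 to 53.0 CPM. Of 15 genes read as markers of mitochondrial mass, 13 were higher and 0 lower, with a median of 0.44. Cs, the citrate synthase of the Krebs cycle, was at 284 to 321 CPM in scramble and 435 to 478 CPM in shMCT-1 libraries, and Phb, a scaffold of the inner membrane, at 196 to 245 and 327 to 377 CPM.

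Of 42 assembly factors, 22 were higher and 5 lower, with a median of 0.21. Sdhaf4, which helps to mature Sdha, was at 1.33 to 2.00 CPM in scramble and 3.55 to 4.69 CPM in shMCT-1 libraries, a log2 fold change of 1.35 ± 0.18, while its client Sdha was lower. Pet117, a factor for complex IV, was at 1.72 to 11.4 CPM in scramble and had no count in any of the 4 shMCT-1 libraries, at least 11.4-fold lower from the lowest scramble library against a floor of 3 counts a library. From the scramble mean, which 1 library raised, the bound was 32.6-fold. Pet117 is on chromosome 2, whose other genes were lower as a class.

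The genes that make and keep mitochondrial RNA showed no common direction. Of 19 for transcription and DNA maintenance, 6 were higher and 4 lower (median 0.02), among them Mterf1a, a termination factor, at -0.93 ± 0.17, and Ssbp1, the single-strand DNA binding protein, at 0.55 ± 0.09. Of 23 for RNA processing and stability, 8 were higher and 4 lower (median 0.08). Fastkd5, needed to cut mRNAs that no tRNA separates, had -0.77 ± 0.10, and Mettl17, a factor of the mitochondrial ribosome, had 0.72 ± 0.11. Fastkd5 is on chromosome 2, whose genes were lower as a class.

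Regulators of mitochondrial biogenesis were the list with most genes lower, 9 of 12 tested, with 2 higher and a median of -0.40. Gabpb2, a partner of GABP, was at 133 to 150 CPM in scramble and 64.8 to 78.5 CPM in shMCT-1 libraries. Esrra, a nuclear receptor that drives respiratory genes, was at 26.6 to 28.5 CPM in scramble and 48.1 to 57.3 CPM in shMCT-1 libraries, a log2 fold change of 0.99 ± 0.07. Length was not corrected for in these lists, and among other coding genes under 1500 exonic bases 58.5% were higher across treatments. Among those over 6000 exonic bases 53.0% were lower, with a median of -0.23.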

How the data were processed

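The deposited tables held expected counts per gene that the authors made with RSEM after cutadapt 1.18 trimming and STAR 2.7.0d alignment to mm10 with GENCODE M19; whether molecular identifiers were collapsed is not given in the sources used here. Counts were rounded to whole numbers. The 12704 genes that exceeded 1 CPM in 2 or more libraries were fitted with edgeR 4.0.16 (R 4.3.3; TMM factors, quasi-likelihood test, 4 group means, Benjamini-Hochberg over all genes tested, adjusted p under 0.05). SE is the log2 fold change divided by the root of F. Lengths, biotypes and copies came from GENCODE M21 (54409 of 54532 identifiers matched). Alternatives were other size factors, filters and tests (DESeq2 1.42.0), length correction (loess, span 0.3), copies added, and libraries left out. The fit was tested on simulated data. Named genes were all mitochondrial members, per pairwise comparison the 6 nuclear members called, without overlap of groups, that rose and fell most, members with paralogs, Cyc1, Cycs and Sdha to Sdhd, the highest per kilobase in each complex, and 2 called genes of each pathway list; others were named after their values were seen. A gene that the rule names is not reported here. Members and lists were chosen with earlier results of these data known.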

Additional observations from a re-analysis of the deposited data

How the results depend on the processing

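Of 716 counts, medians and sums under other settings, 651 stayed within 1.5 times or within the spread between replicates, and of 1007 values of single genes 914 kept direction and call. Counts below are of members called, and causes were not tested unless a setting's own construction shows them. With no filter, the fit took the spread from a trend over all genes rather than from each gene. There 1 mitochondrial gene was higher within IgG and 1 within anti-IL-6R. Nuclear members lower numbered 2, 0 and 3 within IgG, within anti-IL-6R and across treatments. For anti-IL-6R vs IgG, 1 mitochondrial gene was lower in scramble, 11 mitochondrial and 3 nuclear in shMCT-1, and 11 mitochondrial across backgrounds. The interaction without a filter had 4 mitochondrial and 1 nuclear lower. The exact test had 1 mitochondrial gene higher within IgG and 6 lower with anti-IL-6R in shMCT-1. DESeq2 had 5 lower there, 1 lower in the interaction, and 0 mitochondrial higher and 2 nuclear lower across treatments. The correction for length over all genes left 4 nuclear members lower within IgG (median 0.40) and 3 across treatments. The correction on coding genes left 36 higher and 7 lower within IgG, 27 and 6 within anti-IL-6R, and 38 and 11 across treatments, with 0 mitochondrial higher there, nuclear medians of 0.18 and 0.11 and mitochondrial medians of -1.15 and -1.55. With copies added 0 mitochondrial genes were higher across treatments. Without replicate 2 of both IgG groups, 39 nuclear members were higher and 0 lower within IgG, and 2 were lower and 0 mitochondrial higher across treatments.

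Leaving out single libraries moved nuclear members higher between 25 and 63 within anti-IL-6R, and nuclear members lower between 1 and 2 within IgG, 0 and 1 within anti-IL-6R, and 1 and 2 across treatments. Mitochondrial genes higher ranged from 0 to 1 in each of these. The nuclear median within anti-IL-6R ranged from 0.29 to 0.49. The log2 difference in mitochondrial share ranged from -1.02 to -0.57 within IgG and from -0.86 to -0.41 for anti-IL-6R in shMCT-1, and the median differences in scramble ranged from -0.28 to 0.02 for mitochondrial and -0.03 to 0.17 for nuclear members. A lone sample in a group was taken to vary like the other groups.

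Single genes that turned direction were mt-Co2, mt-Atp6 and mt-Nd3, none past the threshold in the comparison that turned. Within IgG, mt-Co2 had -0.0148 with RLE size factors, -0.201 with length correction, -0.53 with that on coding genes, -0.00531 by the exact test, -0.0149 by DESeq2, -0.44 with copies and -0.11 without replicate 2 of both IgG groups, and ranged from -0.19 to 0.17 over single libraries left out. mt-Atp6 had -0.32, -0.16 and -0.36 with the correction on coding genes, with copies and without replicate 2 of both IgG groups, and ranged from -0.15 to 0.48 within IgG and from -0.62 to 0.13 within anti-IL-6R. mt-Nd3 had -0.000983 and -0.25 with copies within IgG and anti-IL-6R, and ranged from -0.24 to 1.45 within anti-IL-6R and from -1.32 to 0.37 for anti-IL-6R in shMCT-1.

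Same-numbered libraries were checked for pairing over all tested genes: correlations of their deviations ran from -0.07 to 0.12, so the numbers were taken to name samples only. The mitochondrial share was higher in replicate 2 than in replicate 1 of scramble + IgG, scramble + anti-IL-6R and shMCT-1 + IgG. It was not in shMCT-1 + anti-IL-6R. With a replicate block and length correction, 3 nuclear members were lower within IgG (median 0.40) and 3 across treatments, and mt-Co2 had -0.20 within IgG. The block alone left 70 nuclear members higher within IgG and 54 within anti-IL-6R, with 9 and 10 mitochondrial genes lower, and it changed no count of calls by over 1.5 times.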
